A study of Rattus norvegicus with 14 samples.

Results

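Transcripts of 9 genes of transforming growth factor beta (TGF-beta) signaling were followed in cultured rat hippocampal neurons and astrocytes treated with allopregnanolone (Allo), a steroid made from progesterone that acts on GABAA receptors. The genes were chosen by symbol, and they were the ligands Tgfb1, Tgfb2 and Tgfb3, the receptors Tgfbr1, Tgfbr2 and Tgfbr3, and the intracellular proteins Smad2, Smad3 and Smad7. All 9 were present in both tables of normalized counts, which list 18239 genes for neurons and 31791 for astrocytes. The study names TGFB1 among the regulators that a pathway program predicted to be active in Allo-treated astrocytes, and the question here is what the transcripts of the pathway itself did.

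The cells came from hippocampi of embryonic day 18 Sprague Dawley rats and were not genetically modified. Every culture was kept in AM medium, a supplement-reduced medium used as a model of aging, so vehicle and Allo groups share that medium, and cultures in full medium were not analysed here. Neurons were put in AM medium on day 10 in culture and kept in it for 4 h. They then had a further 16 h in it with vehicle (AM-Veh, 0.001% ethanol) or 100 nM Allo (AM-Allo). Each neuron group had 4 libraries, named 1-1, 1-2, 2-1 and 2-2. Astrocytes had 24 h in AM medium with stripped serum and 24 h with vehicle or 100 nM Allo, with 3 libraries in each group, after microglia and oligodendrocytes had been shaken off. Nothing in the labels says that libraries of a group came from separate cultures, so p-values measure the spread between libraries, which may be technical.

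TGF-beta ligands are secreted in a latent form and, once released, bind the type II receptor TGFBR2, which phosphorylates the type I receptor TGFBR1. The active type I receptor phosphorylates SMAD2 and SMAD3, which enter the nucleus with SMAD4 and change transcription, while SMAD7 is a target gene whose protein blocks the receptor and so closes a negative feedback loop. TGFBR3, or betaglycan, is a co-receptor that presents ligand and is needed most for TGF-beta 2. In brain the pathway is known for its part in astrocyte reactivity, synapse formation and microglial maturation. Much of this control acts on proteins, through ligand release and SMAD phosphorylation, and RNA levels do not measure it.

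All 9 genes were detected in every library of both cell types. Values are given as normalized counts, which are reads per gene after the authors' correction for library differences. From the spacing of low values, 1 read was estimated at 0.88 to 1.135 normalized counts in neurons and 0.84 to 1.075 in astrocytes. Not all low values fitted whole reads, so this is approximate. It puts the reads on genes at about 19700000 to 25000000 and 22200000 to 28600000 per library. The lowest member value was 48.99 normalized counts, for Tgfb1 in a neuron library, and by that estimate stands on about as many reads. Counts grow with transcript length as well as with transcript number, so levels were not ranked between genes.

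The labelled cell types were checked against marker genes. In neuron cultures, summed counts of 7 listed neuron markers were 59480 to 69930 per library, and those of 9 astrocyte markers were 199000 to 259000. Summed oligodendrocyte lineage markers were 52480 to 60480, led by Cnp of myelin-forming cells. Gfap, the intermediate filament of astrocytes, stood at 68160 to 118700 in the neuron libraries. Those cultures thus contained astrocyte and oligodendrocyte lineage RNA, and a member's level there cannot be given to neurons alone. Summed microglia markers were 36.4 to 69.3 in neuron cultures, with Tmem119 the highest and Itgam, C1qa, C1qb and Trem2 not listed, and summed mesenchymal and endothelial markers, led by Pdgfrb and Kdr, were 665.7 to 2688 and 43.43 to 127. In astrocyte cultures, Gfap stood at 131300 to 139900, summed microglia markers, led by Csf1r, at 1692 to 2210 and summed mesenchymal markers, led by Col1a2, at 67700 to 80940. Dcn and Lum of the mesenchymal list had only 1.94 to 8.286 and 6.494 to 13.89 normalized counts there. Summed neuron markers there were 24760 to 26300, of which Stmn2 alone had 20950 to 22150, and summed oligodendrocyte lineage markers, led by Cnp, were 6534 to 6994. Kdr of endothelial cells stood at 498.3 to 599.1, while Cldn5 was at 0 in all astrocyte libraries. In such bulk cultures, fewer cells of a type and less RNA per cell cannot be told apart.

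Set side by side as normalized counts per 1000000 of each table's total (CPM), 8 of the 9 genes stood higher in every astrocyte library than in every neuron library, and Smad2 stood lower. The tables were normalized separately and list different numbers of genes, so this is a description with no test. Markers of other cells differed between the cultures too. Summed mesenchymal markers were 2846 to 3391 CPM in astrocyte cultures and 29.82 to 121.9 in neuron cultures. The list did not move as one. Col1a1, Col1a2, Col3a1, Pdgfrb and Acta2 stood higher in astrocyte cultures, while Dcn stood lower, at 0.0813 to 0.348 CPM against 4.21 to 12.1. Lum was low in both, at 0.272 to 0.583 and 0.2 to 0.798 CPM. Summed microglia markers were 71.15 to 92.17 and 1.639 to 3.143, and summed oligodendrocyte lineage markers 274.7 to 291.3 and 2351 to 2743. A member's level thus cannot be given to astrocytes alone, and the part of these cells in the ratios was not tested. Tgfb3 had 60.0 ± 4.69 CPM in AM-Veh astrocytes (SD, n = 3) and 6.62 ± 1.06 in AM-Veh neurons (SD, n = 4), a ratio of 9.07. Tgfb1, the ligand best known from injury and inflammation, had 27.8 ± 1.35 against 3.31 ± 0.270 CPM, a ratio of 8.39. For Tgfb2 the levels were 236 ± 9.54 and 117 ± 6.18 CPM, a ratio of 2.02, so the ligands differed in how far their levels were apart.

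Among the receptors, Tgfbr2 stood 6.55 times and Tgfbr3 4.94 times as high, in CPM, in AM-Veh astrocytes as in AM-Veh neurons, while Tgfbr1 stood 1.25 times as high. Neuron cultures thus held the type I receptor transcript at 40.3 ± 1.57 CPM and the type II receptor transcript at 6.82 ± 0.831 CPM, against 50.3 ± 2.89 and 44.7 ± 0.737 in astrocytes. The ratios of the Smads were 6.83 for Smad3, 3.41 for Smad7 and 0.706 for Smad2. The SMADs that carry the signal therefore differed in direction, Smad3 standing at 124 ± 4.04 CPM in astrocytes and 18.2 ± 0.503 in neurons, and Smad2 at 40.1 ± 1.29 and 56.8 ± 2.92.

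**Figure D1:**
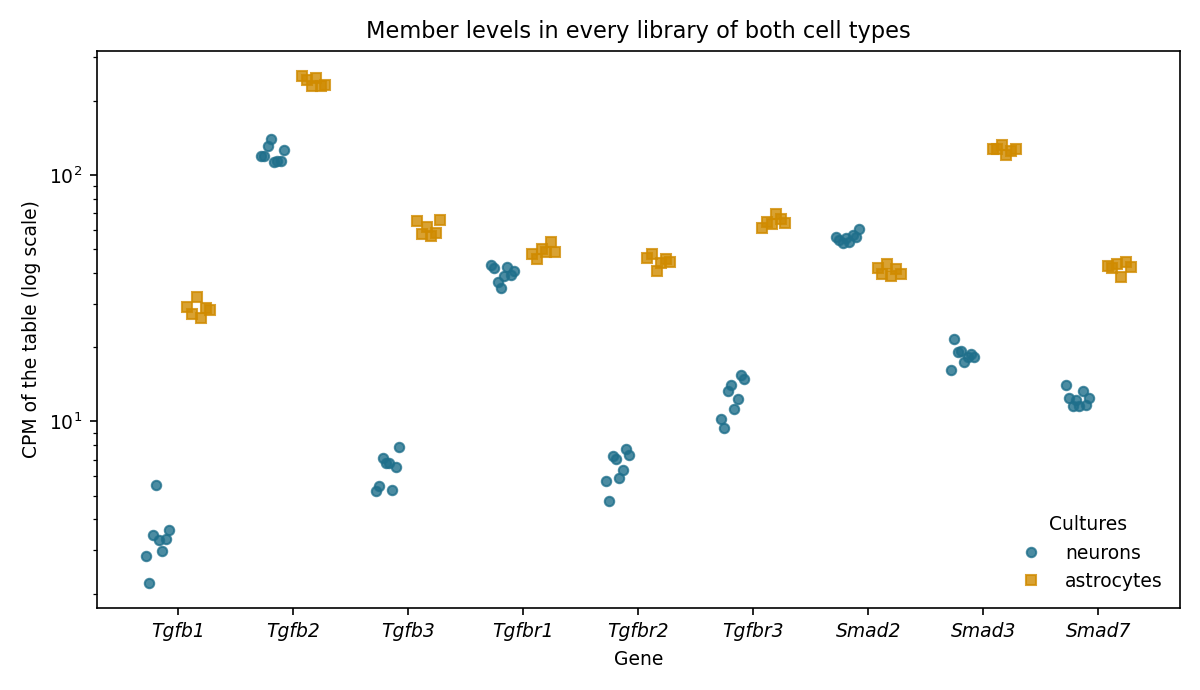
Normalized counts as CPM of each table's total (log scale) for each of the 9 genes in every neuron library (circles) and every astrocyte library (squares), AM-Veh and AM-Allo together. The cell types do not overlap for any gene, and Smad2 alone stands lower in astrocytes, at 39.0 to 43.5 CPM against 53.0 to 60.5 in neurons.

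For Tgfb1 and Tgfbr3, the ligand that the study's prediction names and the receptor with the largest difference between sets of neuron libraries, the 250 bases before the transcript start are printed below from RefSeq, assembly GRCr8. That assembly is another than the one the authors mapped to, and sequences were found for 9 of 9 genes by symbol. The Tgfb1 stretch is chr1:90324062-90324311 on the plus strand, with capitals at a match to TGACG, the half-site of the cyclic AMP response element, read on the opposite strand. The Tgfbr3 stretch is chr14:2634044-2634293 on the plus strand, with capitals at a match to GGGCGG, the GC box, also on the opposite strand.
Tgfb1: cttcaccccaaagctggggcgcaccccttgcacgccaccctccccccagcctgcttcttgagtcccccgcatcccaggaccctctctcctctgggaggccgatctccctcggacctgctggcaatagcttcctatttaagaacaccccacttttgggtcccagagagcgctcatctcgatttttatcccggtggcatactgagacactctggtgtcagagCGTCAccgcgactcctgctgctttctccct
Tgfbr3: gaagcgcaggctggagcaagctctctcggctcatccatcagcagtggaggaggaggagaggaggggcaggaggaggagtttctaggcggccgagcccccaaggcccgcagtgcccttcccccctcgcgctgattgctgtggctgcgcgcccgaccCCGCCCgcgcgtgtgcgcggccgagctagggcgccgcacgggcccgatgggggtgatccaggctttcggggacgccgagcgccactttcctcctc
Searched on both strands over 300 bases (250 before and 50 after the start), TGACG was found in 2 of the 9 genes, Tgfb1 and Smad3, and in 21.2% of all 33469 promoters. GGGCGG was found in 6 of 9 (Tgfbr1, Tgfbr2, Tgfbr3, Smad2, Smad3 and Smad7) and in 33.1% of promoters. The Smad box CAGAC was in 0 of 9 and 50.1% of promoters, and its palindrome GTCTAGAC, which does not contain CAGAC, in 0 of 9 and 0.197%. TGACGTCA, the full response element, which contains TGACG, was in 0 of 9 and 1.83% of promoters. These matches are descriptions of letters in a window, not of binding.

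Allo against vehicle in neurons was the first comparison. None of the 9 genes passed the test at an adjusted p under 0.05, and none had an unadjusted p under 0.05, in limma on log2(normalized count + 1) with Benjamini-Hochberg adjustment over 15314 genes. Over all those genes, 5.69% had an unadjusted and 0.0261% an adjusted p under 0.05 (872 and 4 genes). The AM-Veh and AM-Allo libraries overlapped for every member, while they did not for 3.95% of all genes tested. Of the members, 4 stood higher and 5 lower with Allo, with a median log2 difference of −0.044, beside 7530 higher and 7784 lower and a median of −0.00153 over all genes. Tgfb2 and Tgfbr3 lay farthest from 0 relative to their error, in opposite directions.

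Tgfb1, which encodes the TGF-beta 1 ligand, had 72.81, 65.38, 74.65 and 81.13 normalized counts in AM-Veh libraries 1-1, 1-2, 2-1 and 2-2. In AM-Allo libraries of the same order it had 62.69, 48.99, 76.87 and 123.4. Allo libraries thus held both the lowest values and the highest, and AM-Allo 2-2 was the highest of the 8. The means were 73.49 ± 6.48 and 77.99 ± 32.4 (SD, n = 4 each), and the log2 difference was 0.0048 with a standard error of 0.240 and a 95% interval of −0.526 to 0.536. The two-sided exact permutation p was 0.971. Without AM-Allo 2-2 the log2 difference was −0.24. Leaving out AM-Veh 1-2 gave −0.049 and leaving out AM-Allo 2-1 gave −0.016, so the sign depended on single libraries.

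Tgfb2 encodes the isoform that depends most on betaglycan. It had 2495, 2517, 2552 and 2809 normalized counts in AM-Veh and 2614, 2612, 2907 and 3124 in AM-Allo, in the same library order. Within each first number both Allo libraries stood above both vehicle libraries. The log2 difference was 0.12 ± 0.0622 (SE), a ratio of means of 1.085, with an unadjusted p of 0.0916, an adjusted p of 0.896 in limma and an exact permutation p of 0.171. With a block by the first part of the library number the unadjusted p was 0.00740 and the adjusted p 0.234.

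Tgfb3, the remaining ligand, had 149.3, 116.4, 145.9 and 175.5 normalized counts in AM-Veh and 115.3, 120.1, 158.0 and 152.0 in AM-Allo. The groups shared most of their range, and the log2 difference was −0.10 ± 0.148 (SE; adjusted p = 0.997, limma).

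Tgfbr1, the type I receptor kinase, had 858.1, 929.5, 873.7 and 910.6 normalized counts in AM-Veh and 950.0, 923.9, 819.7 and 780.7 in AM-Allo. The Allo values spread beyond the vehicle values on both sides, and the log2 difference was −0.044 ± 0.0652 (SE). Tgfbr2, the type II receptor, had 129.9, 140.0, 172.7 and 162.4 in AM-Veh and 125.9, 105.1, 161.0 and 158.1 in AM-Allo. Its Allo libraries stood below the vehicle libraries within each first number, with a log2 difference of −0.15 ± 0.152 (SE) and an adjusted p of 0.995 in limma. For Tgfbr3, the co-receptor, the values were 246.0, 270.2, 344.4 and 332.1 in AM-Veh and 223.8, 207.8, 294.8 and 311.9 in AM-Allo. Here too Allo was below vehicle within each first number, while the groups overlapped between them. The log2 difference of Tgfbr3 was −0.21 ± 0.151 (SE), a ratio of means of 0.8705, with a 95% interval of −0.542 to 0.129 and an adjusted p of 0.966 in limma. With the block its unadjusted p was 0.00995 and its adjusted p 0.262.

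Smad2 and Smad3 encode the receptor-activated SMADs. Smad2 had 1174, 1253, 1254 and 1351 normalized counts in AM-Veh and 1232, 1198, 1178 and 1237 in AM-Allo. Smad3 had 383.8, 402.9, 417.1 and 409.3 in AM-Veh and 357.6, 478.2, 424.1 and 432.8 in AM-Allo, the libraries AM-Allo 1-1 and 1-2 being its lowest and highest. The log2 differences were −0.053 ± 0.0460 (SE) for Smad2 and 0.062 ± 0.0833 (SE) for Smad3. Smad7, the inhibitory SMAD, had 255.9, 292.4, 261.9 and 279.7 in AM-Veh and 311.3, 275.5, 256.3 and 271.7 in AM-Allo, a log2 difference of 0.031 ± 0.0794 (SE). For this feedback target the 95% interval of −0.145 to 0.207 bounds the difference, and its adjusted p was 0.998 in limma.

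With the block by first number, 2 of the 9 genes had an unadjusted p under 0.05, Tgfb2 higher and Tgfbr3 lower, against 5.76% of all genes higher and 5.24% lower, and 0 of 9 an adjusted p under 0.05, against 0.679%. Markers of cell types also stood apart between these groups. Of 7 neuron markers tested, 3 had an unadjusted p under 0.05 and stood higher with Allo, among them Map2 with 24730 ± 682 in AM-Veh and 26510 ± 649 in AM-Allo (SD), and 1 stood lower. None passed the adjusted test without a block, and with it the tubulin gene Tubb3 rose (9014 ± 484 and 10410 ± 696, SD; adjusted p = 0.0440, limma). Summed neuron markers were 59480 to 65540 in AM-Veh and 63630 to 69930 in AM-Allo libraries, and summed astrocyte markers 199600 to 259000 and 199000 to 251400. Of 9 oligodendrocyte lineage markers, 8 stood higher with Allo and 1, Cnp, had an unadjusted p under 0.05, which became 6 with the block, all higher and none past the adjusted test. Their sums were 52480 to 56440 in AM-Veh and 53580 to 60480 in AM-Allo. Without the block, 5.69% of all genes had an unadjusted p under 0.05. The part of these markers in the members' values was not tested.

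**Figure D2:**
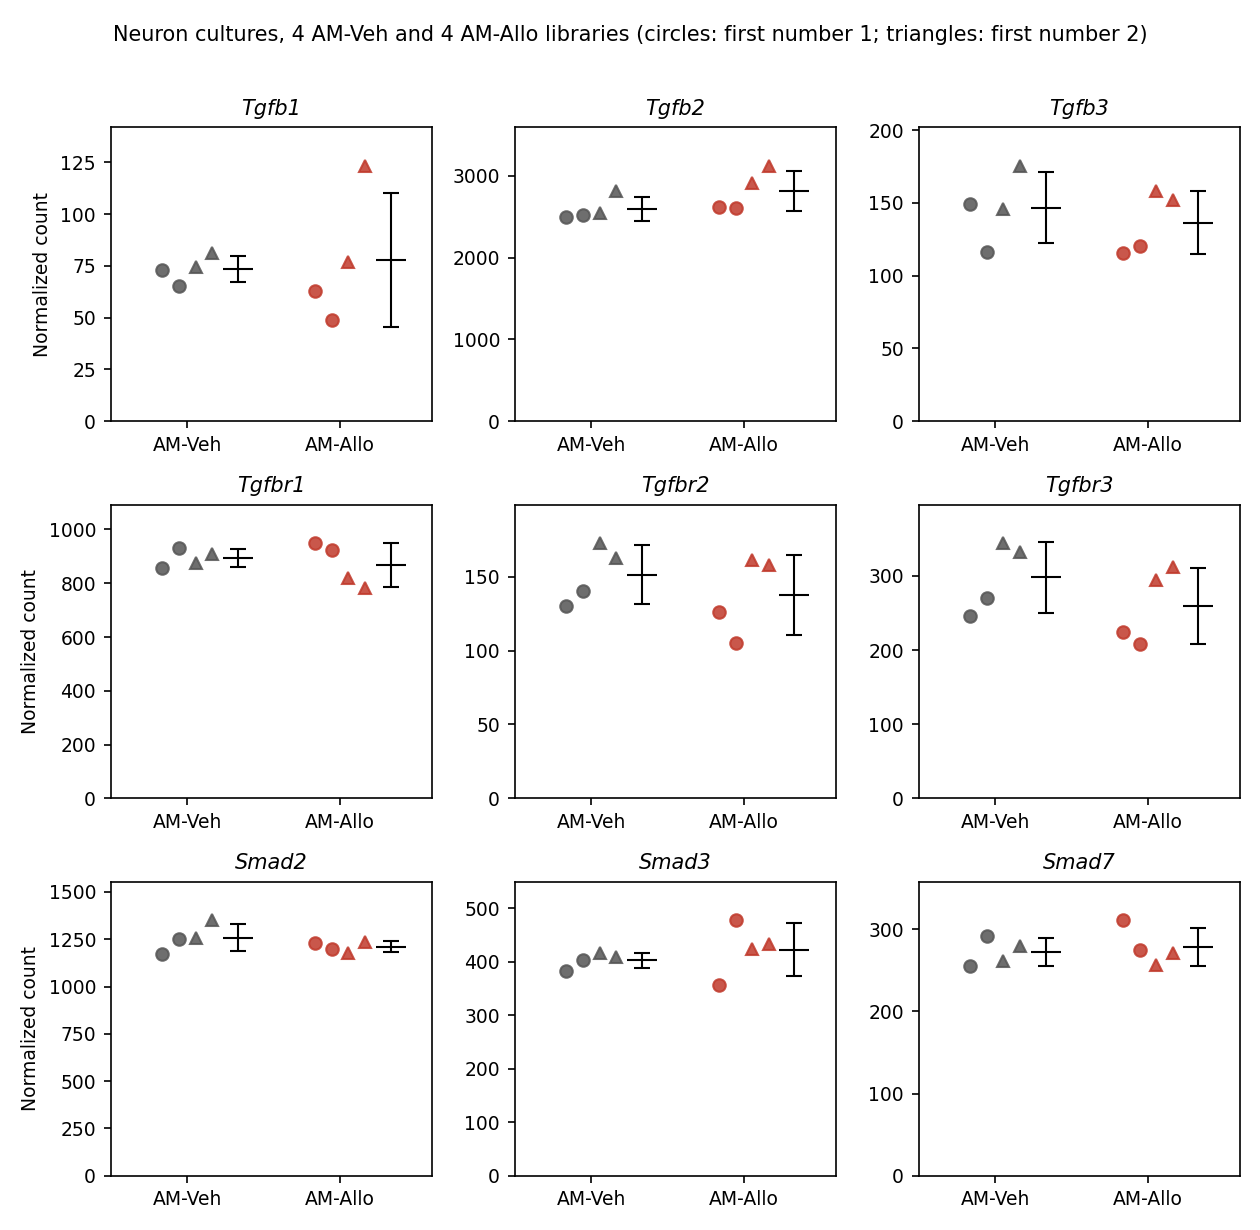
Normalized counts of the 9 genes in each neuron library (circles, first number 1; triangles, first number 2), with the mean and SD of each group of 4 as a black bar. For every gene the AM-Veh and AM-Allo points overlap, and for Tgfb1, Tgfbr2 and Tgfbr3 all triangles stand above all circles.

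Allo against vehicle in astrocytes was the comparison that the study's TGFB1 prediction concerns. None of the 9 genes passed the test or had an unadjusted p under 0.05 in limma, against 7.01% of 15380 genes with an unadjusted and 0.00650% with an adjusted p under 0.05 (1078 genes and 1 gene). The groups overlapped for every member, while they did not for 12.5% of all genes tested. Of the members, 7 stood higher and 2 lower with Allo, with a median log2 difference of 0.0332, beside 7791 higher and 7589 lower and a median of 0.00137 over all genes. With 3 libraries against 3, the smallest p that the exact permutation test can give is 0.1.

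Tgfb1 itself had 624.4, 691.8 and 672.1 normalized counts in AM-Veh libraries 1, 2 and 3 and 696.4, 649.2 and 767.2 in AM-Allo. An Allo library lay inside the vehicle range and the other two above it. The means were 662.8 ± 34.7 and 704.2 ± 59.4 (SD, n = 3 each), a ratio of 1.063. The log2 difference of 0.085 had a 95% interval of −0.0669 to 0.238 and an adjusted p of 0.848 in limma, and the exact permutation p was 0.400.

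Tgfb2 had 5884, 5513 and 5523 normalized counts in AM-Veh and 6009, 5766 and 5494 in AM-Allo. Tgfb3 had 1348, 1391 and 1561 in AM-Veh and 1550, 1370 and 1477 in AM-Allo. The log2 differences of these ligands were 0.029 ± 0.0413 and 0.033 ± 0.0613 (SE), and both lay within their standard errors.

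For Tgfbr1 the values were 1159, 1286 and 1157 in AM-Veh and 1143, 1093 and 1207 in AM-Allo, a log2 difference of −0.064 ± 0.0566 (SE). Tgfbr2 had 1050, 1091 and 1060 in AM-Veh and 1099, 1140 and 982.5 in AM-Allo, a log2 difference of 0.0071 ± 0.0582 (SE). Tgfbr3 had 1648, 1591 and 1522 in AM-Veh and 1454, 1535 and 1514 in AM-Allo. The co-receptor was the member with the smallest unadjusted p here, at 0.107, with a log2 difference of −0.080 ± 0.0459 (SE), an adjusted p of 0.786 in limma and an exact permutation p of 0.200. Only its AM-Allo library 2 lay inside the vehicle range.

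Smad2 had 928.2, 994.0 and 947.0 normalized counts in AM-Veh and 1002, 950.3 and 1044 in AM-Allo. For Smad3 the values were 2842, 3008 and 3049 in AM-Veh and 3043, 3063 and 3178 in AM-Allo. Both receptor-activated SMADs had a log2 difference of 0.062, with standard errors of 0.0539 and 0.0397 and adjusted p of 0.857 and 0.805 in limma. Smad7, which rises in many cells once TGF-beta acts on them, had 917.6, 1064 and 1012 in AM-Veh and 1015, 1002 and 1046 in AM-Allo. All 3 Allo values of Smad7 lay inside the vehicle range, with a log2 difference of 0.036 ± 0.0585 (SE) and a 95% interval of −0.0909 to 0.162.

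Among markers of other cells in the astrocyte cultures, the summed microglia markers were 1692 to 2210 in AM-Veh and 1776 to 1968 in AM-Allo, and the summed mesenchymal markers 67700 to 80940 and 73070 to 78320. Of 11 microglia markers, 1 had an unadjusted p under 0.05, the chemokine receptor Cx3cr1 with a mean of 76.44 and 51.30 normalized counts and a log2 difference of −0.58 ± 0.197 (SE), and none passed the adjusted test. All 5 neuron markers tested stood lower with Allo (median log2 difference −0.126), Map2 and Dcx with an unadjusted p under 0.05, although their summed counts were 25530 to 26300 in AM-Veh and 24760 to 26000 in AM-Allo. Of 9 astrocyte markers, 8 stood lower (median log2 difference −0.0268), the glutamate transporter Slc1a2 and S100b with an unadjusted p under 0.05, and the sums were 240600 to 253800 and 239700 to 243800. Over all genes tested in astrocytes, 7.01% had an unadjusted p under 0.05. None of these markers passed the adjusted test, and their part in the members' values was not tested.

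**Figure D3:**
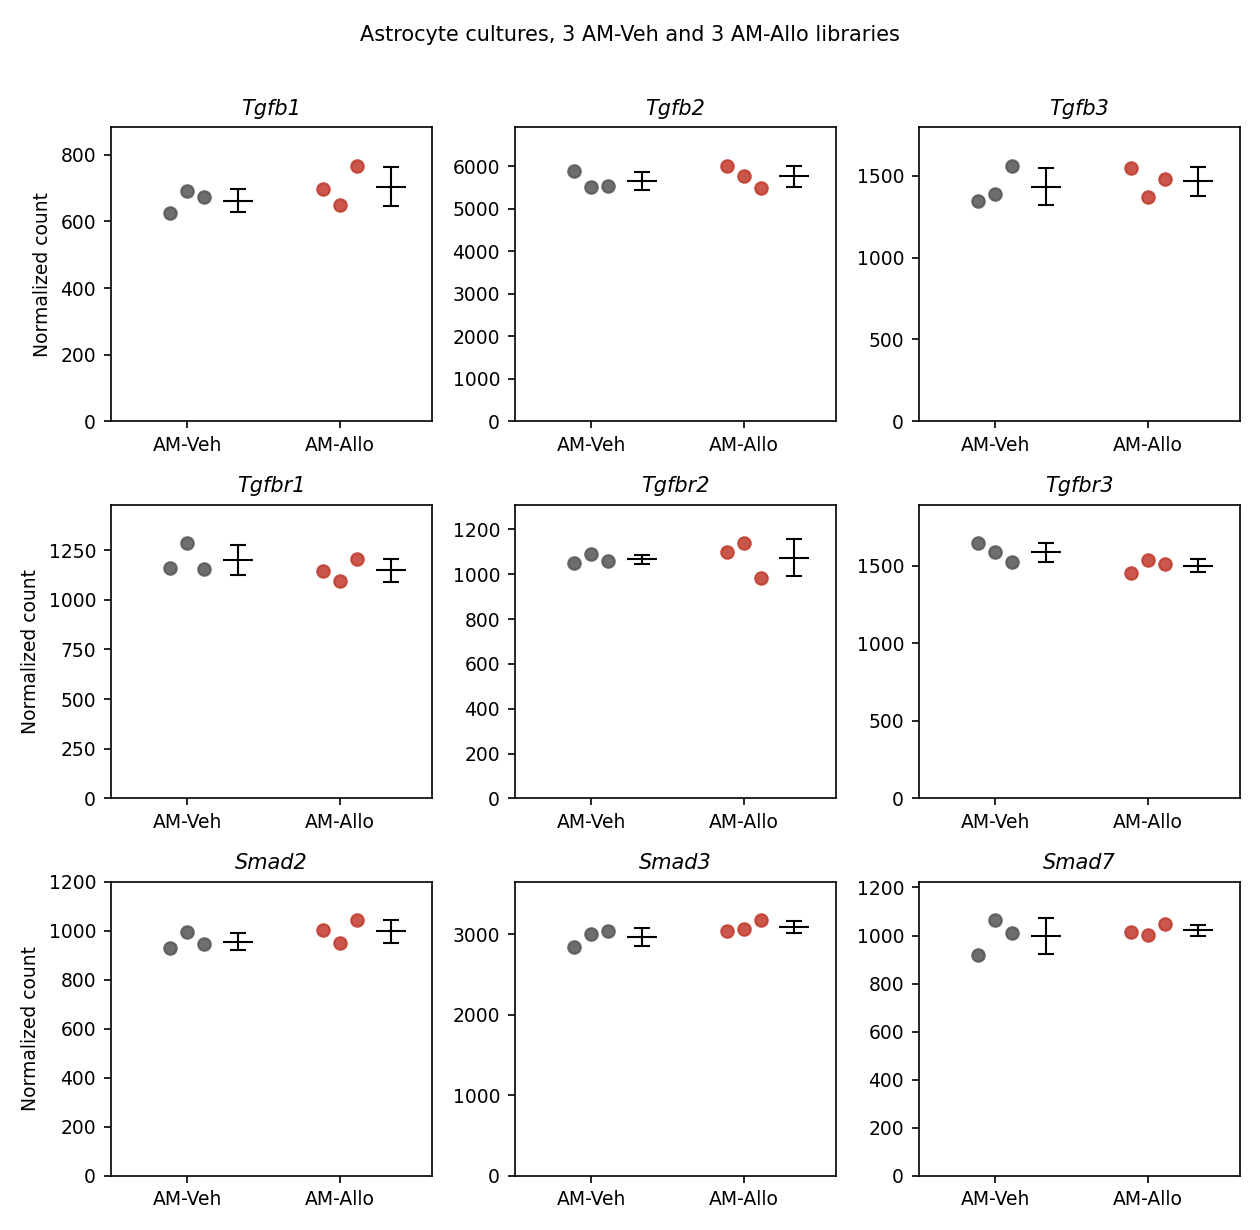
Normalized counts of the 9 genes in each astrocyte library, with the mean and SD of each group of 3 as a black bar. The groups overlap for every gene, and the AM-Allo points of Smad7 all lie inside the AM-Veh range of 917.6 to 1064.

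**Figure D4:**
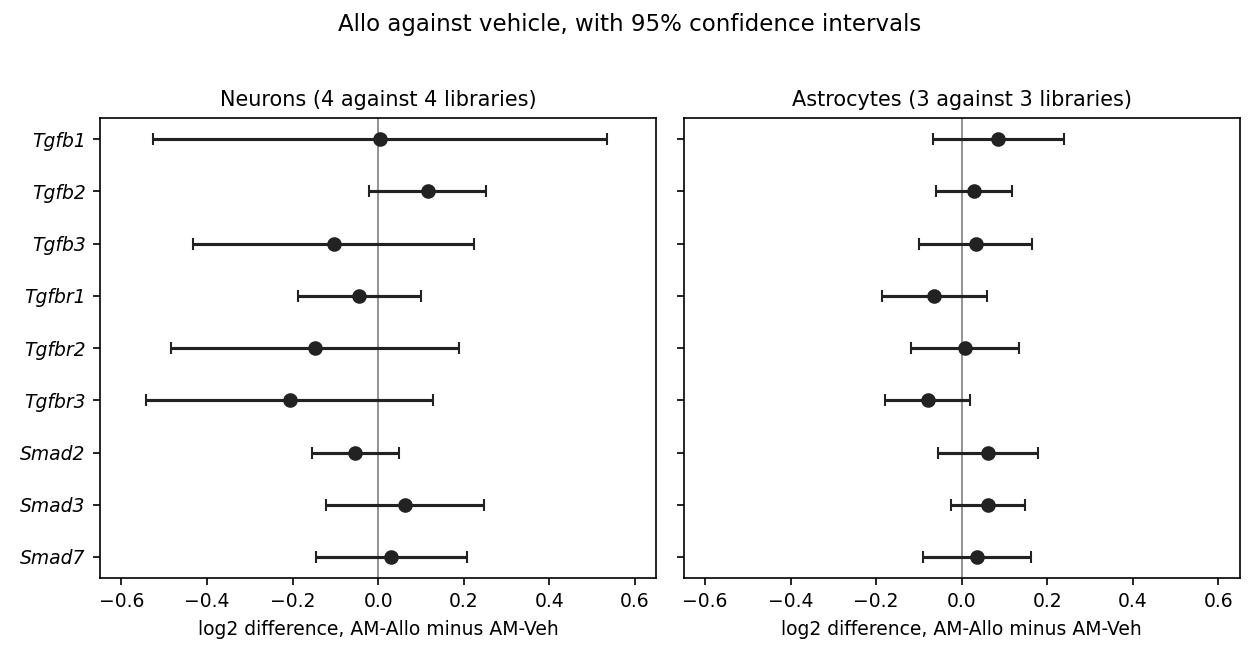
Log2 difference of AM-Allo minus AM-Veh with its 95% confidence interval from limma, for the 9 genes in neurons and in astrocytes. The fit has no block by first number. In it every interval includes 0, and the widest is that of Tgfb1 in neurons, −0.526 to 0.536. With that block the standard errors in neurons were smaller, 0.0371 for Tgfb2 and 0.0698 for Tgfbr3 (unadjusted p of 0.00740 and 0.00995, adjusted p of 0.234 and 0.262, limma).

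Neuron libraries differed by the first part of their number in more genes than by treatment. The labels give no meaning for that part. With treatment in the same limma fit, libraries of first number 2 stood higher than those of first number 1 for Tgfb2, Tgfb3, Tgfbr2 and Tgfbr3 at an adjusted p under 0.05. These are 4 of 9 genes, all higher in first number 2, where 17.2% of all genes tested passed in either direction and 9.61% in that direction.

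Tgfbr3 had 237.0 ± 27.2 normalized counts in first number 1 and 320.8 ± 21.9 in first number 2 (SD, n = 4 each), a log2 difference of 0.44 ± 0.0698 (SE; adjusted p = 0.000413, limma). All first number 2 libraries, at 294.8 to 344.4, stood above all first number 1 libraries, at 207.8 to 270.2. Tgfbr2 stood likewise apart, with 125.2 ± 14.7 and 163.6 ± 6.34 normalized counts (SD), a log2 difference of 0.39 ± 0.0978 (SE; adjusted p = 0.0121, limma). The type II receptor and the co-receptor were thus both higher in the set where the type I receptor Tgfbr1 had 846.2 ± 57.4 against 915.4 ± 39.8 (SD; log2 difference −0.11, adjusted p = 0.152, limma).

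Of the ligands, Tgfb2 had 2559 ± 62.5 and 2848 ± 237 (SD; log2 difference 0.15, adjusted p = 0.0109, limma) and Tgfb3 had 125.3 ± 16.1 and 157.9 ± 12.7 (SD; log2 difference 0.34, adjusted p = 0.0432, limma). Tgfb1 had the largest log2 difference of the 9, 0.49 ± 0.178 (SE), with an adjusted p of 0.0776 in limma. Its values were 48.99 to 72.81 in first number 1 and 74.65 to 123.4 in first number 2, which do not overlap. The Smads stood closer, at log2 differences of 0.046, 0.061 and −0.082 for Smad2, Smad3 and Smad7, all with an adjusted p over 0.5. The call of Tgfb3 was lost when any library other than AM-Veh 1-1 or 2-1 was left out (adjusted p up to 0.134, limma), and without a trend in the fit both Tgfb3 and Tgfb2 lost theirs (0.0725 and 0.0963). Without AM-Veh 1-1, Tgfb1 and Tgfbr1 passed (adjusted p of 0.0497 and 0.0379, limma).

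Markers of other cell types differed with the first number as well. Summed mesenchymal markers were 1006 to 2688 in first number 1 and 665.7 to 790.9 in first number 2, with 4 of 7 lower and 1 higher in first number 2 at an adjusted p under 0.05. Summed astrocyte markers were 199000 to 210900 and 236100 to 259000, with 4 of 9 higher and 2 lower, and Gfap had 73160 ± 4370 and 112200 ± 5550 (SD). Summed oligodendrocyte lineage markers were 56440 to 60480 and 52480 to 54440, with 5 of 9 lower and 1, Sox10, higher (835.5 ± 70.7 and 1214 ± 154, SD). Summed endothelial markers were 32.15 to 44.42 and 51.91 to 108.6 over the 2 of 6 markers tested, while summed neuron markers overlapped. That endothelial difference was Kdr, with 27.99 ± 3.36 and 63.82 ± 19.5 (SD; adjusted p = 0.00154, limma). Cdh5 had 10.31 ± 1.99 and 10.19 ± 5.47 (SD; adjusted p = 0.871, limma). Whether these cells account for the members' difference was not tested.

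The response to Allo was also compared between the first numbers, by the interaction term in limma. None of the 9 genes passed at an adjusted p under 0.05, as did 0.0784% of all genes, and 1 of 9, Tgfbr1, had an unadjusted p under 0.05, against 9.53%. For Tgfbr1 the log2 difference of Allo against vehicle was 0.069 within first number 1 and −0.16 within first number 2 (adjusted p of the interaction = 0.393, limma). For Tgfb1 it was −0.31 and 0.32, the widest gap of the members, at an adjusted p of 0.574. For Tgfb2 it was 0.060 and 0.17 and for Tgfbr3 −0.26 and −0.16, so these genes kept a direction in both sets, as did Tgfb3, Tgfbr2 and Smad3. Each of these differences sets 2 libraries against 2, and the share of all genes that kept a direction was not counted. Those of Smad3, 0.072 and 0.052, lay within their standard errors of 0.109, so its shared sign says little.

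The rest of the pathway was read from 5 lists, of which none had a gene past an adjusted p of 0.05 in either cell type in limma without a block. Among 15 other receptors and Smads in neurons, 13 were tested, 9 stood higher and 4 lower, and the median log2 difference was 0.0259. The activin type II receptors Acvr2a and Acvr2b had an unadjusted p under 0.05, both higher, which is 2 of 13 against 5.69% of all genes. With the block by first number Acvr1b joined them. Acvr2a had 1851, 1960, 1929 and 1878 normalized counts in AM-Veh and 2010, 1983, 2078 and 2205 in AM-Allo, a log2 difference of 0.12 ± 0.0405 (SE; adjusted p = 0.712, limma). Acvr2b had 76.79, 88.81, 68.53 and 84.56 and then 104.7, 113.3, 102.0 and 91.44, a log2 difference of 0.37 ± 0.122 (SE; adjusted p = 0.694, limma). All Allo libraries stood above all vehicle libraries for these receptors of activin and related ligands, while the groups did not overlap for 3.95% of all genes. Bmpr1a, a type I receptor for bone morphogenetic proteins, had the most counts of the list, 4832 ± 86.2 and 4816 ± 197 (SD).

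In astrocytes 14 of these receptors and Smads were tested, 6 higher and 8 lower, with a median log2 difference of −0.0162. Acvr1b, an activin type I receptor that also signals through SMAD2 and SMAD3, had 874.9, 863.8 and 836.7 in AM-Veh and 891.4, 925.7 and 1018 in AM-Allo. Its log2 difference was 0.14 ± 0.0584 (SE; adjusted p = 0.686, limma), and it alone of the list had an unadjusted p under 0.05, against 7.01% of all genes. Its groups did not overlap, nor did those of Bmpr1b (unadjusted p = 0.755, limma), as was so for 12.5% of all genes. Bmpr1a again had the most counts, 7867 ± 120 and 7542 ± 356 (SD).

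Genes of ligand latency and activation had no unadjusted p under 0.05 in either cell type, and with the neuron block 1, Emilin1, stood higher at that level. In neurons 9 of 17 tested stood higher and 8 lower (median log2 difference 0.00198), and in astrocytes 13 of 19 stood higher and 6 lower (median 0.0248). The gene with the most counts was the integrin subunit Itgb1 in neurons, with 10790 ± 353 in AM-Veh and 10570 ± 173 in AM-Allo (SD). In astrocytes it was Thbs1, thrombospondin 1, which can release TGF-beta 1 from its latent form, with 79870 ± 8740 and 82070 ± 7360 (SD). Thbs1 ranged from 70150 to 90110 normalized counts over astrocyte libraries and from 144.9 to 406.8 over neuron libraries.

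Among Smad cofactors and inhibitors, 10 of 19 tested stood higher in neurons (median log2 difference 0.0135) and 12 of 19 in astrocytes (median 0.0344). Ldlrad4, a membrane protein that holds SMAD2 and SMAD3 away from the receptor, had 260.9 ± 6.69 in AM-Veh and 229.9 ± 15.8 in AM-Allo neurons (SD), a log2 difference of −0.18 (adjusted p = 0.792, limma). Smurf2, a ubiquitin ligase that works with SMAD7 to remove receptors, had 2554, 2532 and 2510 in AM-Veh and 2287, 2320 and 2429 in AM-Allo astrocytes, a log2 difference of −0.11 (adjusted p = 0.570, limma). For both inhibitors all Allo libraries stood below all vehicle libraries. Over all genes tested, the groups did not overlap for 3.95% in neurons and 12.5% in astrocytes. In astrocytes Strap and Fkbp1a of this list did not overlap either, with all Allo libraries above all vehicle libraries. Fkbp1a, which binds the inactive type I receptor, had the most counts of the list in both cell types, 9644 ± 272 and 5276 ± 124 in the AM-Veh groups (SD).

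Of 35 TGF-beta target genes in neurons, 18 stood higher and 17 lower, with a median log2 difference of 0.0108, and 2 had an unadjusted p under 0.05, both lower, where 5.69% of all genes had one. With the block by first number these became 7 of 35, Col3a1 higher and Fn1, Tagln, Cnn1, Tpm1, Cdkn1a and Timp1 lower, against 5.76% of all genes higher and 5.24% lower. Col3a1 is also a mesenchymal marker, and the lower genes encode fibronectin, proteins of the actin cytoskeleton, p21 and an inhibitor of matrix proteases. Of these, Tagln passed the adjusted test, and Fn1 came next with an adjusted p of 0.0562 in limma. Tagln, which encodes the actin-binding protein transgelin, had 5813, 6245, 8116 and 8744 normalized counts in AM-Veh and 4911, 5298, 6934 and 6059 in AM-Allo. Both Allo libraries stood below both vehicle libraries within each first number, and the log2 difference was −0.31 ± 0.139 (SE; adjusted p = 0.871, limma). Under the first-number block the adjusted p of Tagln was 0.00652, and it was the 1 gene of the 5 pathway lists that passed, so the fall of Tagln with Allo rests on that block. Cdkn1a, the cell cycle inhibitor p21, had 7748 ± 383 and 7060 ± 461 (SD; log2 difference −0.14, adjusted p = 0.783, limma). Tnc, the matrix protein tenascin C, had the most counts, 7912 ± 528 and 8151 ± 216 (SD).

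In astrocytes 34 target genes were tested, 23 stood higher and 11 lower, and the median log2 difference was 0.0365, beside 0.00137 over all genes. The list was not split by whether TGF-beta raises or lowers a gene, so its counts and medians give no direction of the pathway, here or in neurons. With an unadjusted p under 0.05, 4 stood higher (Gadd45b, Myc, Eln and Cnn1) and 1 lower (Id2, log2 difference −0.11), 5 of 34 against 7.01% of all genes, and none passed the adjusted test. Gadd45b, a stress-induced gene, had 626.8, 693.1 and 640.5 in AM-Veh and 704.0, 874.7 and 773.6 in AM-Allo, a log2 difference of 0.26 ± 0.0767 (SE; adjusted p = 0.495, limma). Myc, a growth factor-responsive gene that TGF-beta lowers in many epithelial cells, had 375.3, 404.9 and 395.6 and then 451.8, 538.2 and 414.8, a log2 difference of 0.25 ± 0.0921 (SE; adjusted p = 0.625, limma). Eln, which encodes elastin, had 2054, 2493 and 2597 and then 2695, 2675 and 2632, a log2 difference of 0.17 (adjusted p = 0.665, limma). For these 3 genes of 34 the groups did not overlap, as they did not for 12.5% of all genes, and the vehicle values of Eln spread far more than its Allo values. Cnn1, calponin of smooth muscle, had 5437 ± 220 and 5803 ± 187 (SD; log2 difference 0.094, adjusted p = 0.684, limma). Fn1, fibronectin, had the most counts, 132400 ± 6880 and 131700 ± 8580 (SD). Col1a1, Col1a2, Col3a1 and Acta2 stand on this list and among the mesenchymal markers.

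Among other ligands and antagonists, 8 of 18 tested stood higher in neurons (median log2 difference −0.0137) and 11 of 18 in astrocytes (median 0.0371). Bmp4, a bone morphogenetic protein and also the gene with the most counts of this list in neurons, had 1794, 1753, 1593 and 1905 in AM-Veh and 1870, 1972, 1915 and 1862 in AM-Allo, a log2 difference of 0.12 (adjusted p = 0.871, limma). Gdf1 had 73.07, 69.80 and 93.87 in AM-Veh and 61.62, 47.11 and 49.49 in AM-Allo astrocytes, a log2 difference of −0.57 (adjusted p = 0.540, limma). Its groups did not overlap, as was so for 12.5% of all genes in astrocytes. Those of Bmp4 in astrocytes did not overlap either, with all Allo libraries above. Under the neuron block, Bmp4 stood higher and Gdf15, Bmp6 and Fstl1 lower at an unadjusted p under 0.05, and none passed the adjusted test. Fstl1, a secreted follistatin-like protein, had the most counts in astrocytes, 21740 ± 668 and 22530 ± 412 (SD).

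**Figure D5:**
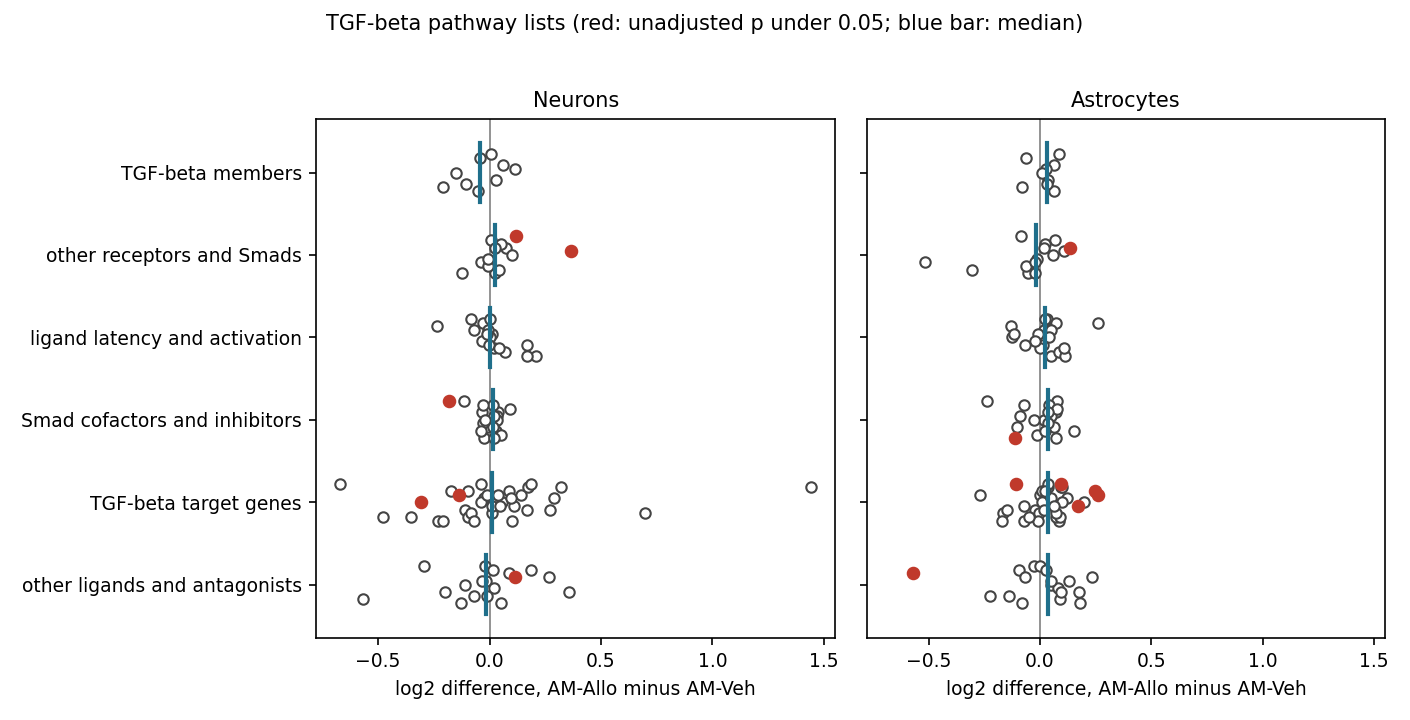
Log2 difference of AM-Allo minus AM-Veh for every tested gene of the 9 members and of 5 further lists of the pathway, in neurons and astrocytes (red, unadjusted p under 0.05; blue bar, median of the list). The medians lie between −0.044 and 0.0371, and single genes of the target list spread widest in neurons.

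The genes whose log2 values ran most alike across libraries were named for 3 members, as a description, with libraries sharing their treatment and, in neurons, their first number. For Tgfb1 they were Tmem132c and Klf11 over the 8 neuron libraries (Pearson r of 0.955 for both) and Ppp1r3d and Rwdd2b over the 6 astrocyte libraries (0.984 and 0.983). For Tgfb2 they were Vamp8 and Txnrd3 in neurons (0.983 and 0.982) and Hsd17b1 and Stat5a in astrocytes (0.988 and 0.986). For Smad7 they were Kctd18 and Kmt2e in neurons (0.972 and 0.956) and Pabpc4 and Aldh3a2 in astrocytes (0.992 and 0.991). The pairs differed between the cell types for each member, and with so few libraries 12 to 188 genes reached an r over 0.9 with these members.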

How the data were processed

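RNA was sequenced from 8 neuron and 6 astrocyte libraries, with the cell type, group and number of each read from its title. Libraries were stranded and poly(A)-selected. The authors estimated transcript abundance with Salmon 0.14, took it to gene level and normalized it with DESeq2 1.18.1. They deposited, per cell type, this normalized signal (counts after division by normalization factors) and variance-stabilized values (VST), which are near a log2 scale. The neuron VST values hold no difference between the first parts of the library numbers, so that difference had been removed by the authors. No column was left unused, and the values did not give back whole reads throughout (73.0% to 96.2% of low values were whole within 0.15 reads).

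Genes averaging 10 or more normalized counts were tested on log2(normalized count + 1) with limma 3.58.1 (lmFit, eBayes with a trend) in R 4.3.3, in each cell type alone, with Benjamini-Hochberg adjustment over all genes tested. A difference passed the test at an adjusted p under 0.05. The unadjusted threshold of 0.05 is the one the study used for its gene lists. Differences are AM-Allo minus AM-Veh on the log2(normalized count + 1) scale, which understates the change of low genes. For members, a two-sided permutation test over all regroupings was added (exact), which cannot go below 0.0286 for 4 libraries against 4. The procedure was tested on simulated data.

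In neurons, libraries with the same whole number deviated together after group means were removed (correlations over genes of 0.296, 0.229, 0.265 and 0.273). So did libraries with the same first part and another second part (0.185, 0.236, 0.211 and 0.196). Libraries with different first parts did not (−0.319 to −0.15). The data thus show a grouping by the first part, which the labels do not state, and do not settle a pairing by the whole number. A block by the whole number and by its first part were alternatives, as were another scaling, other filters, a pseudocount of 5, no trend, VST values and leaving out each library.

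The 9 members, the 5 pathway lists and the marker lists were chosen with earlier results of these data known. Named from each pathway list were the genes with an unadjusted p under 0.05 (up to the 4 with the smallest p) and the gene with the most counts, from each marker list the gene with the most counts and those at 0, and for Tgfb1, Tgfb2 and Smad7 the 2 genes most alike. Further list and marker genes that make up a count, such as Id2, Cx3cr1, Tubb3 and those counted with the block, were named after their values were seen. Transcript lengths and a genome of the authors' build were not used here.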

Additional observations from a re-analysis of the deposited data

How the results depend on the processing

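No member passed an adjusted p of 0.05 for Allo against vehicle in either cell type under any alternative run. In neurons, members with an unadjusted p under 0.05 numbered 2 with VST values, with the block by first number, with the replicate block by whole number, and with VST values and the block by first number together (added after seeing the data), and 0 to 1 when a library was left out. Over all neuron genes, the unadjusted count of 872 became 2204, 1684, 1634 and 1694 under those settings, and the adjusted count of 4 became 158, 104, 93 and 105. VST values alone count no degree of freedom for the difference removed from them. Without a trend the adjusted count was 0 in neurons and in astrocytes, and 0 for the interaction. It was 0 to 4 in neurons and 1 to 72 in astrocytes when a library was left out (AM-Allo 1 left out gave 72, AM-Veh 2 gave 3 and AM-Allo 3 gave 2, against 1 in all libraries). It was 0 in astrocytes with a mean of at least 50 and 17 with the replicate block by number, although same-numbered astrocyte libraries did not deviate together (correlations of 0.0241, −0.00698 and 0.0117).

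Without a trend, 1722 of all genes and 2 members (Tgfbr2 and Tgfbr3) passed for the first number, and 3 to 6 members when a library was left out. VST values could not give that comparison.

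Signs turned only when a library was left out. The lowest and highest log2 differences were −0.24 and 0.20 for Tgfb1 in neurons (−0.049 without AM-Veh 1-2, −0.016 without AM-Allo 2-1), −0.024 and 0.070 for Smad7, and −0.089 and 0.0057 for Tgfbr1. In astrocytes they were −0.0023 and 0.062 for Tgfb2, −0.0099 and 0.096 for Tgfb3, −0.037 and 0.070 for Tgfbr2, and −0.024 and 0.083 for Smad7. For the first number, Smad3 ranged from −0.021, without AM-Allo 1-1, to 0.15. The causes were not tested. At 3 or 4 libraries a group, the intervals of the members leave room for differences of a size that these data cannot show, widest for Tgfb1 in neurons.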

Other observations

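Another pair was seen outside the rule that names genes, and after the values were seen. Of all genes tested in neurons, Smad4, whose protein joins SMAD2 and SMAD3 in the nucleus, had the log2 values most alike to those of Smad3 over the 8 libraries (Pearson r of 0.939). In astrocytes Smad4 was not among the 2 genes nearest to Smad3, which were Kcnt1 and Epn1 (0.996 and 0.992 over 6 libraries). Libraries share their treatment and, in neurons, their first number, so these correlations are a description.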
